A study of Mus musculus with 5 samples.

Results

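Oxidative phosphorylation was followed through the genes of its subunits in the MGE (medial ganglionic eminence), a part of the embryonic ventral forebrain that gives rise to cortical interneurons. Members were chosen by symbol, with no filter on their values, though earlier results of these data were known. Every gene with a single symbol on its probe set was taken if that symbol met the rule. The symbol began with Nduf, a subunit letter and a number, was Sdha to Sdhd, or began with Uqcr, Cox4 to Cox8, or Atp5. Assembly factors and Ndufa4l2 were left out, and the brightest probe set over all arrays stood for a gene. This gave 80 genes of the 18193 with a single-symbol probe set: 34 of complex I, 4 of complex II, 8 of complex III, 17 of complex IV and 17 of complex V. Of the 80, 74 were bright enough to test among 11063 genes tested, and all 74 lay above the brightness limit in every array, so none entered the test through 1 group alone. The list is not the whole machinery. Some subunits, among them Ndufs6, Ndufa11 and Cox7b, had no probe set that met the rule. Ndufab1 of complex I and Cyc1 (cytochrome c1) of complex III fell outside the symbol rule and are counted with the electron carriers. Ndufa4, counted with complex I by its name, is known as a subunit of complex IV.

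Total RNA was measured on 5 mouse expression arrays in 4 groups, all from embryos at E15.5. They were primary neuronal cultures of the rostral MGE ventricular and subventricular zones from Dlx1/2 mutants (1 array) and from WT embryos (1 array), and the dissected zones themselves from Dlx1/2 mutants (2 arrays) and from WT embryos (1 array). Dlx1 and Dlx2 encode homeodomain transcription factors of ventral forebrain progenitors. The labels give no allele, strain, days in culture or number of pooled embryos, and the title of the WT tissue array writes its genotype as an incomplete "+/". Separate embryos are not stated for the pair of mutant tissue arrays, so the spread between them may be technical. P-values for genotype in tissue and for the interaction rest on that spread. In the model of preparation and genotype, the spread also includes any disagreement of the genotype effect between culture and tissue. On leaving out a mutant tissue array, this disagreement is the only spread of a gene's own that is left.

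Complexes I and II pass electrons from NADH and succinate to ubiquinone, complex III passes them to cytochrome c, and complex IV (cytochrome c oxidase) to oxygen. Complexes I, III and IV pump protons across the inner mitochondrial membrane, and complex V (ATP synthase) uses the proton gradient to make ATP. Most subunits are encoded in the nucleus and imported, a few are encoded in mitochondrial DNA, and developing neurons are known to raise respiration as they leave the progenitor state.

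The deposited signals of the targeted genes followed the labels: Dlx1 was 1.26 in mutant culture against 603 in WT culture, and 2.80 and 0.921 in mutant tissue against 3278 in WT tissue. Dlx2 was 21.7 in mutant culture against 331 in WT culture, and 18.7 and 11.7 in mutant tissue against 1069 in WT tissue. Every value below is a log2 intensity after quantile normalization across the 5 arrays unless stated otherwise, and every difference is a log2 difference with its standard error (SE). Tests are limma's moderated test with Benjamini-Hochberg adjustment over the 11063 genes, and "rose", "fell", "higher" and "lower" as calls mean an adjusted p below 0.05. Probe sets differ in how brightly they read, so levels of different genes are not compared.

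Subunit genes were mostly higher in cultures than in tissue. In the model of preparation and genotype over all 5 arrays, 43 of the 74 were higher in culture (58.1%, against 19.6% of all genes tested) and 3 were lower (4.05%, against 19.2%). The median difference was 0.26, while the median over all genes tested was 0.00. The differences ran from −0.79 to 0.94, with 66 of 74 above 0 and 8 below (against 50.1% and 49.9% of all genes tested). The members are bright genes, and among the other 1242 genes with a mean of 10 or more, 26.2% were higher and 27% lower in culture, against 39 and 3 of the 68 members that bright (57.4% and 4.41%). This comparison with bright genes was chosen after the values were seen.

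The direction held within each genotype. Mutant culture minus mutant tissue had a median of 0.26 over the members, with 62 of 74 above 0, and WT culture minus WT tissue had a median of 0.23, with 64 above 0. Both culture arrays lay above all 3 tissue arrays in 52 members (70.3%, against 29.6% of all genes tested) and below them in 4 (5.41%, against 29.2%). All 43 higher members were among the 52. The median member read 11.82 in mutant culture and 11.90 in WT culture, against 11.54 and 11.51 in mutant tissue and 11.66 in WT tissue.

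**Figure D1:**
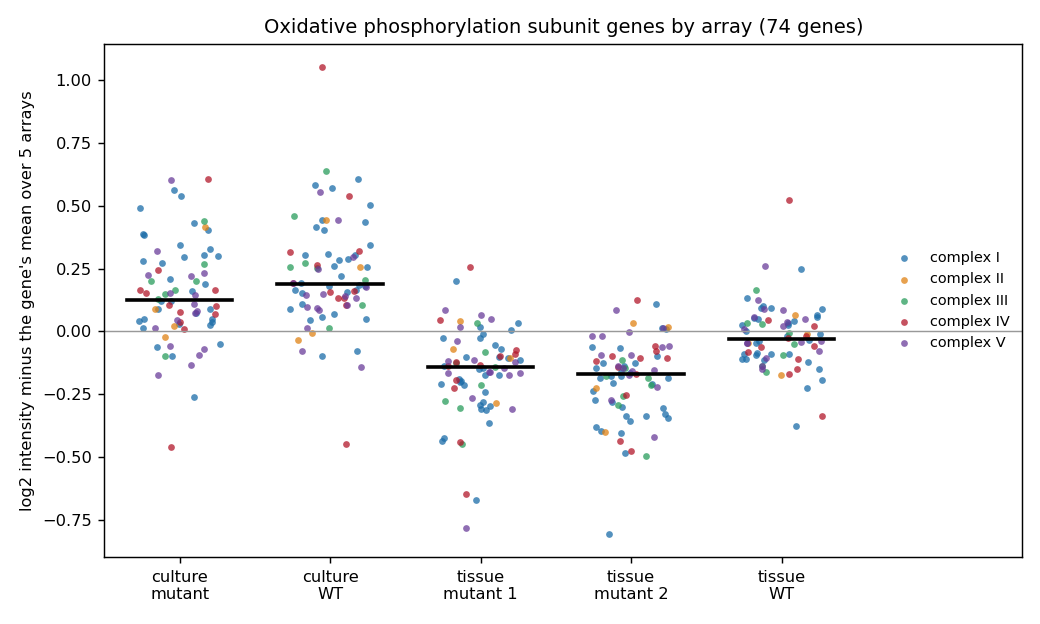
Each point is 1 of the 74 subunit genes tested, coloured by complex. The vertical axis is the log2 intensity in 1 array minus that gene's mean over the 5 arrays. Black bars are medians over the genes. Most genes lie above 0 in both culture arrays and below 0 in both mutant tissue arrays, while WT tissue lies near 0.

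With either mutant tissue array left out, 28 members were called (27 higher and 1 lower each time) in place of 46, and 26 of the 43 higher calls were kept both ways. When the prior variance had no intensity trend 17 were called, and with dim genes tested as well 13 were called, all of them among the 46. Preparation cannot be told apart from anything else that differed between cultured and dissected samples, since each array is 1 preparation only.

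The 3 genes of subunit c, the proton-carrying ring of ATP synthase, moved in different directions. Their mature proteins are known to be the same, and the genes differ in the leader peptide and in regulation. Atp5g1 was 11.06 in mutant culture and 11.19 in WT culture, against 10.44 and 10.32 in mutant tissue and 10.70 in WT tissue, and rose in culture by 0.60 ± 0.09 (adjusted p = 0.00184). Atp5g3 was 13.15 in mutant culture and 13.18 in WT culture, against 12.77 and 12.76 in mutant tissue and 12.80 in WT tissue, and rose by 0.39 ± 0.06 (adjusted p = 0.00135). In both genes the culture arrays stood above all tissue arrays. Atp5g2 was 11.96 in mutant culture and 11.95 in WT culture, against 12.12 and 12.09 in mutant tissue and 12.36 in WT tissue. Both culture arrays lay below all tissue arrays. It fell in culture by 0.25 ± 0.08 (adjusted p = 0.0363), a call lost on leaving out either mutant tissue array, with the deposited scaling kept (adjusted p = 0.307) and with arrays centred (adjusted p = 0.642). In tissue Atp5g1 and Atp5g2 were also lower in mutants, as given further on, while Atp5g3 differed by −0.03 ± 0.06 there (adjusted p = 0.79). The plot of paralogues shows these values by array.

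The promoters of these 3 genes are printed because the genes encode 1 protein and moved in different ways, and those of Ndufa12 and Cox7a2l because they had the lowest adjusted p of the higher and of the lower members in culture. The sequences are the 250 bases before the RefSeq gene start (mouse build GRCm38.p6), 5′ to 3′ on the gene's strand. Capitals mark matches, on either strand, to the NRF1 motif, a GC-rich palindrome, and to the letters CCGGAAG (ETS factors), AAGATGGC (YY1), AAGGTCA (ERR), GGGCGG (SP1) and CCAAT (NF-Y), sites of factors known from promoters of respiratory genes. A match is a description of letters, not of binding. Adjoining or overlapping matches run together in capitals.
Atp5g1, chr11:96075632-96075881, minus strand: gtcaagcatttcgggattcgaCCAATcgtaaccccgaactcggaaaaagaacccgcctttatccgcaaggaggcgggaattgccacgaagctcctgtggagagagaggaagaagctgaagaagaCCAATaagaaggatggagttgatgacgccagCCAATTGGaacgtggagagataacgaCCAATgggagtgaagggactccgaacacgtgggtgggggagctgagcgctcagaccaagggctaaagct
Atp5g2, chr15:102671048-102671297, minus strand: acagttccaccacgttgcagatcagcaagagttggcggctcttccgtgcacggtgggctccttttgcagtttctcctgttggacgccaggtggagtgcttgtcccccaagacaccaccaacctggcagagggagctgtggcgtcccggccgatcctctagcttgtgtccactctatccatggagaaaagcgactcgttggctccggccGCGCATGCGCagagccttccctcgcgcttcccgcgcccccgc
Atp5g3, chr2:73911327-73911576, minus strand: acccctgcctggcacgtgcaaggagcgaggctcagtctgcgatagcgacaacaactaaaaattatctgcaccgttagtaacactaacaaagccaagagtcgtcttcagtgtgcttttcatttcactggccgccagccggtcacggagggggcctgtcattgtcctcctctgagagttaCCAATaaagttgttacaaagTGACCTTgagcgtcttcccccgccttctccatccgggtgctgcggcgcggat
Ndufa12, chr10:94198785-94199034, plus strand: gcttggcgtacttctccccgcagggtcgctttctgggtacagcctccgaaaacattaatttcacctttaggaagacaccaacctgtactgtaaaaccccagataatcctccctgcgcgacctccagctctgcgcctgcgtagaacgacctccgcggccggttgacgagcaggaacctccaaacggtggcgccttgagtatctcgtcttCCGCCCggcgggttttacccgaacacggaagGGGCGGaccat
Cox7a2l, chr17:83514334-83514583, minus strand: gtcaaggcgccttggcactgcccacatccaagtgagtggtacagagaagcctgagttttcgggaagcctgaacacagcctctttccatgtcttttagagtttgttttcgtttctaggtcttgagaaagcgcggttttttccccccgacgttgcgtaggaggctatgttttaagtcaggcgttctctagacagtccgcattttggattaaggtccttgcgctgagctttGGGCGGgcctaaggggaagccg

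The Atp5g1 sequence held 5 CCAAT matches on both strands, the last starting 69 bases before the gene start, and no match to the other letters. The Atp5g2 sequence held 1 stretch that matched the NRF1 motif on both strands, starting 42 bases before the gene start. Atp5g3 held a CCAAT match and, on the opposite strand, an ERR match that starts 52 bases before the gene start. With the 50 bases after the start added, which are not printed, Atp5g3 also held the NRF1 motif and Atp5g2 the SP1 letters. The Ndufa12 sequence held 2 matches to the SP1 letters and that of Cox7a2l held 1. Over the 300 bases that RefSeq's promoter table gives each gene (250 before and 50 after the start), 66 of the 80 members had 71 promoters. The NRF1 motif was in 22.5% of these, against 10.3% of the promoters of genes tested and 4.6% of all 32851 promoters. The YY1 letters were in 12.7%, against 4.44% and 2.75%, and the ERR letters in 11.3%, against 2.85% and 4.72%. The ETS letters were in 23.9%, against 17.5% and 8.86%, and the NF-Y letters in 40.8%, against 37.9% and 37.4%. The SP1 letters were in 40.8%, against 63.2% and 35.7%. Members higher in culture had 39 promoters and the other members 32. The NRF1 motif was in 10 of 39 and 6 of 32, and the ETS letters in 13 and 4. The YY1 letters were in 6 and 3, ERR in 4 and 4, SP1 in 18 and 11, and NF-Y in 17 and 12. No test was made of these shares.

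**Figure D2:**
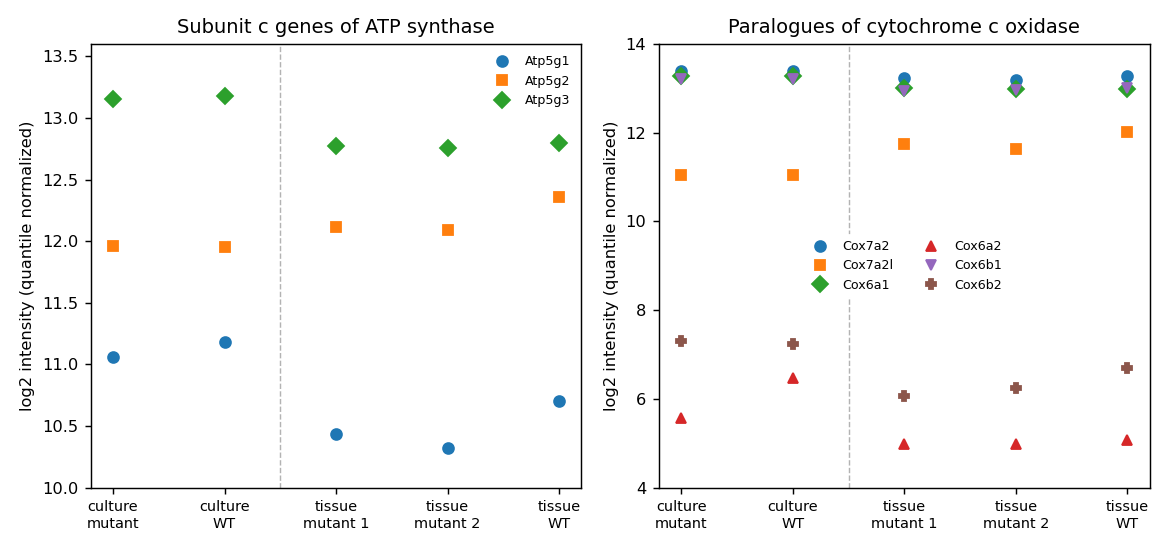
Log2 intensity (quantile normalized) in each of the 5 arrays, for the 3 subunit c genes of ATP synthase (left) and for 6 subunit genes of cytochrome c oxidase (right), with 1 point per array and no averaging. A dashed line separates culture from tissue. Atp5g1 and Atp5g3 stand higher in culture and Atp5g2 lower, and Cox7a2l is lower in culture while the other oxidase genes shown are higher. The vertical position of 1 gene against another carries no meaning.

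In complex I, the largest group, 18 of 33 members tested were higher in culture and 0 lower (15 and 14 higher without mutant tissue array 1 or 2), with a median of 0.30. Ndufa12, an accessory subunit of the arm that reaches into the matrix, was 12.70 in mutant culture and 12.66 in WT culture, against 11.85 and 11.80 in mutant tissue and 11.79 in WT tissue. Its rise of 0.87 ± 0.07, a 1.83-fold difference, had the lowest adjusted p of any member (6.33e-05). Its 2 other probe sets above the brightness limit differed by 0.39 and 0.70 in the same direction, between the means of the culture and tissue arrays. Ndufa5, another accessory subunit of the matrix arm, was 11.58 in mutant culture and 11.80 in WT culture, against 10.77 and 10.71 in mutant tissue and 11.11 in WT tissue, a rise of 0.78 ± 0.08 (adjusted p = 0.000282). In both genes the culture arrays were clear of the tissue arrays, and both calls were kept under every alternative run.

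Several accessory subunits of the membrane arm were among the higher members. Ndufb1, read by a probe set of low signal, was 7.87 in mutant culture and 7.89 in WT culture, against 6.87 and 6.50 in mutant tissue and 7.40 in WT tissue, a rise of 0.89 ± 0.21 (adjusted p = 0.0132). Ndufb6, Ndufb2, Ndufb7 and Ndufb10 rose by 0.71, 0.65, 0.64 and 0.59. The calls of Ndufb6, Ndufb7 and Ndufb10, like that of Ndufa1, which is needed for assembly of the membrane arm, were kept under every alternative run. Of the 6 core subunits measured, 2 rose. Ndufs8, an iron-sulfur subunit near the quinone site, was 11.93 in mutant culture and 12.01 in WT culture, against 10.76 and 11.16 in mutant tissue and 11.32 in WT tissue, and rose by 0.84 ± 0.13 (adjusted p = 0.00154). Ndufs7, which carries the last iron-sulfur cluster before ubiquinone, rose by 0.41 ± 0.12 (adjusted p = 0.0255), a call lost on leaving out either mutant tissue array. Ndufs1, the large iron-sulfur subunit of the NADH-oxidizing module, had the lowest difference of the complex at −0.30 ± 0.11 and did not pass (adjusted p = 0.0722). Ndufv1, the subunit that binds NADH and flavin, differed by 0.06 ± 0.11 (adjusted p = 0.714).

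Of the 4 genes of complex II, also an enzyme of the citric acid cycle, 2 rose. Sdhd, a membrane anchor subunit, was 10.37 in mutant culture and 10.40 in WT culture, against 9.67 and 9.56 in mutant tissue and 9.78 in WT tissue, a rise of 0.70 ± 0.10 (adjusted p = 0.00126) that was kept under every alternative run. Sdhb, the iron-sulfur subunit, rose by 0.26 ± 0.08 (adjusted p = 0.0269), which was lost on leaving out either mutant tissue array. The catalytic flavoprotein Sdha differed by 0.00 ± 0.09 (adjusted p = 0.992), and the other anchor Sdhc by −0.03 ± 0.09 (adjusted p = 0.798).

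In complex III, 6 of 8 members were higher in culture and 0 lower, and 3 (Uqcrq, Uqcrb and Uqcr10) were higher on leaving out either mutant tissue array. Uqcrq, a small subunit near the ubiquinone site, was 11.13 in mutant culture and 11.33 in WT culture, against 10.24 and 10.20 in mutant tissue and 10.56 in WT tissue, and rose by 0.85 ± 0.09 (adjusted p = 0.000249). Its only other probe set above the brightness limit was dim, at a mean of 4.83, and differed by −0.27, and the average of its 4 probe sets, 2 of them below the limit, differed by −0.20. Uqcrb, Uqcr10 and Uqcr11, other small subunits, rose by 0.39, 0.46 and 0.35. The core proteins Uqcrc1 and Uqcrc2, which face the matrix, rose by 0.33 ± 0.08 and 0.37 ± 0.09 (adjusted p = 0.0152 and 0.0152). Neither call held without mutant tissue array 1 or 2. The other Uqcrc2 probe set above the brightness limit, at a mean of 11.66, differed by −0.13. Uqcrfs1, the Rieske iron-sulfur protein, differed by 0.19 ± 0.08 (adjusted p = 0.0953) and Uqcrh, the hinge protein between cytochromes c1 and c, by −0.10 ± 0.07 (adjusted p = 0.325).

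Complex IV held both the highest and the lowest difference of all members. Of 12 tested, 9 were higher and 1 lower in culture, against 4 higher and 1 lower without mutant tissue array 1 or 2. Cox7a2l encodes a protein related to subunit VIIa that joins complexes III and IV into supercomplexes. It was 11.04 in mutant culture and 11.05 in WT culture, against 11.75 and 11.62 in mutant tissue and 12.02 in WT tissue. It fell by 0.79 ± 0.10 (1.72-fold, adjusted p = 0.000602), with both culture arrays below all tissue arrays, and its 2 other probe sets above the limit differed by −0.87 and −0.92. The call was kept on leaving out either mutant tissue array and lost when dim genes were tested too (adjusted p = 0.0508). Its paralogue Cox7a2, the widely expressed subunit VIIa, was 13.40 in mutant culture and 13.40 in WT culture, against 13.22 and 13.19 in mutant tissue and 13.27 in WT tissue, and rose by 0.17 ± 0.05 (adjusted p = 0.0438), a call lost on leaving out either mutant tissue array.

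Widely expressed subunits of complex IV rose by small amounts. Cox5b, which binds zinc, rose by 0.41 ± 0.06, Cox5a by 0.32 ± 0.08, Cox6a1 by 0.27 ± 0.05 and Cox8a by 0.30 ± 0.09, with adjusted p between 0.00193 and 0.0391. Of these calls, that of Cox8a was lost on leaving out either mutant tissue array. Cox4i1, a regulatory subunit that binds adenine nucleotides, differed by 0.13 ± 0.06 and did not pass (adjusted p = 0.138). Cox6a2, known as the isoform of heart and skeletal muscle, read near the bottom of the tested range at 5.58 in mutant culture and 6.46 in WT culture, against 4.98 and 4.98 in mutant tissue and 5.08 in WT tissue. Its difference of 0.94 ± 0.32, the highest of all members, rested mostly on the WT culture array, passed narrowly (adjusted p = 0.0495) and was lost with the deposited scaling and on leaving out either mutant tissue array. Cox6b2, known from testis, was 7.32 in mutant culture and 7.25 in WT culture, against 6.07 and 6.24 in mutant tissue and 6.69 in WT tissue, a rise of 0.91 ± 0.21 (adjusted p = 0.0118). Cox8c, known from testis, differed by 0.17 ± 0.19 (adjusted p = 0.515). The other 4 isoforms known from particular tissues or conditions were too dim to test. Cox4i2, known from lung and from low oxygen, read between 4.62 and 4.85 over the 5 arrays, and the muscle isoforms Cox7a1 and Cox8b were each at the floor in 1 array. Cox7b2, known from testis, read between 2.36, the floor, and 3.04. Ndufb4 and Cox7c were represented here only by dim probe sets.

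In complex V, 8 of 17 members were higher and 2 lower, against 4 and 5 higher and 0 lower without mutant tissue array 1 or 2. The catalytic head gave 1 of each among 5: Atp5c1, the rotating shaft, rose by 0.20 ± 0.06 (adjusted p = 0.0241) and Atp5a1, the alpha subunit, fell by 0.22 ± 0.07 (adjusted p = 0.0364), and neither call held without mutant tissue array 1 or 2. Atp5a1 was 11.85 in mutant culture and 11.94 in WT culture, against 12.10 and 12.10 in mutant tissue and 12.11 in WT tissue. Atp5b, the catalytic beta subunit, was 12.54 in mutant culture and 12.73 in WT culture, against 12.60 and 12.65 in mutant tissue and 12.66 in WT tissue, and differed by −0.02 ± 0.07 (adjusted p = 0.878). Small membrane subunits gave 3 rises among 5. Atp5md, a small protein attached to the enzyme's membrane part, was 11.98 in mutant culture and 11.93 in WT culture, against 10.59 and 11.15 in mutant tissue and 11.22 in WT tissue, and rose by 0.93 ± 0.16 (adjusted p = 0.00339). Atp5k, a subunit of the interface between paired synthases, rose by 0.41 ± 0.07 (adjusted p = 0.00404). Atpif1, the inhibitor of reversed ATP synthase, is outside the list under its older symbol and differed by −0.04 ± 0.07 (adjusted p = 0.681).

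**Figure D3:**
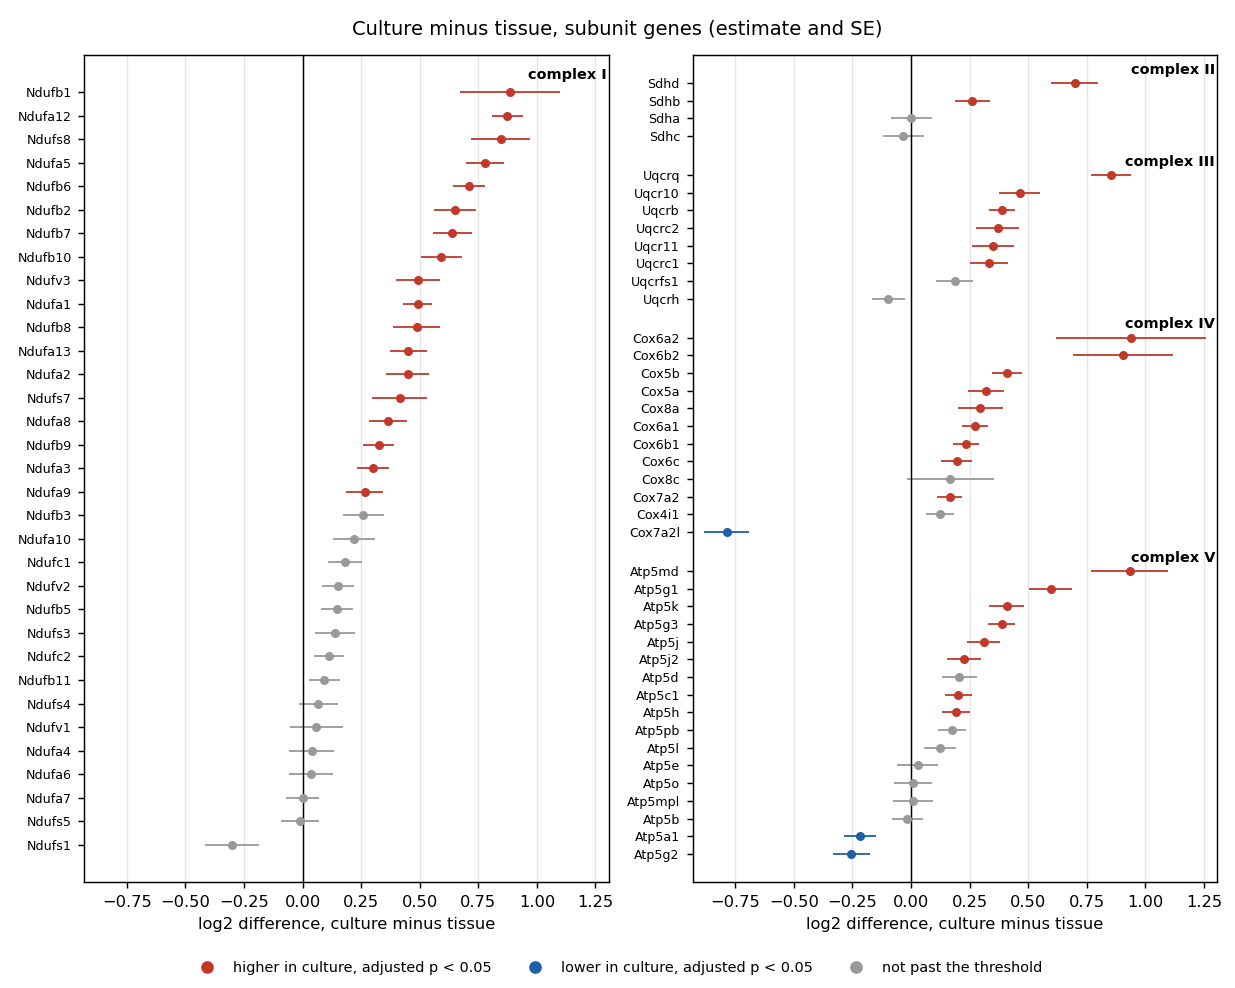
Culture minus tissue for each of the 74 subunit genes tested, grouped by complex. Points are the fitted log2 differences and bars their SE from the model over 5 arrays. Red marks the 43 genes higher in culture, blue the 3 lower and grey those not past the threshold. Cox7a2l at −0.79 stands apart from all other genes of the figure.

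Markers of other cells moved between the preparations too, where 19.6% of all genes tested were higher and 19.2% lower in culture. Red blood cell markers fell to the floor in culture (3 of 3 named in both culture arrays, with summed deposited signals of 5.19 in mutant culture and 6.91 in WT culture, against 338 and 303 in mutant tissue and 473 in WT tissue). Endothelial markers summed to 201 in mutant culture and 135 in WT culture, against 757 and 853 in mutant tissue and 899 in WT tissue, with Pecam1 at the floor in both culture arrays and Tek in WT culture; 1 of 3 tested fell and 0 rose. Pericyte and mesenchyme markers summed to 372 in mutant culture and 354 in WT culture, against 911 and 976 in mutant tissue and 1080 in WT tissue, with Abcc9 at the floor in both culture arrays; 3 of 5 tested fell and 0 rose. Astrocyte and radial glia markers summed to 15743 in mutant culture and 12543 in WT culture, against 11357 and 10384 in mutant tissue and 9653 in WT tissue, with Gfap at the floor in WT culture; 4 of 6 tested rose and 0 fell. Of 5 neuronal markers 2 rose and 3 fell, and their sum was 10436 in mutant culture and 10694 in WT culture, against 14362 and 13917 in mutant tissue and 12530 in WT tissue. Of 5 microglial markers 2 fell and 0 rose, and of 4 markers of the oligodendrocyte lineage 2 (Olig2 and Pdgfra) fell and 0 rose, with 1 lower in each of these lists without mutant tissue array 1 or 2. Without either array the neuronal markers that rose numbered 1 and the astrocyte markers 3. Both MGE markers, Nkx2-1 and Lhx6, fell in culture, though Nkx2-1 was not tested without mutant tissue array 2. Their sum was 387 in mutant culture and 930 in WT culture, against 956 and 1003 in mutant tissue and 1364 in WT tissue. The part of these markers in the rise of subunit genes was not tested, and in bulk samples fewer cells of a type and less RNA per cell cannot be told apart.

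Some subunit genes were lower in Dlx1/2 mutant tissue than in WT tissue. Of 74 members, 14 were lower in mutant tissue (18.9%, against 6.7% of all genes tested) and 0 were higher (against 8.59%). The median difference was −0.15, a 1.11-fold difference, against 0.00 over all genes tested (−0.25 with the deposited scaling and −0.32 with arrays centred), with 63 of 74 below 0 and 11 above (against 49.9% and 50.1%). Both mutant arrays lay below the WT array in 59 members (79.7%, against 40.2% of all genes tested) and above it in 8 (10.8%, against 40.8%). The median was −0.11 for mutant array 1 and −0.17 for mutant array 2. Among the other 1242 bright genes, 12.2% were lower and 16.4% higher in mutants. At an unadjusted p below 0.05, 29 members were lower and 0 higher (against 13.2% and 15.9% of all genes tested).

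The tissue comparison rests on 1 residual degree of freedom and on a single WT array that was assumed to vary like the mutant pair, so genotype and that array cannot be told apart. With no intensity trend, and with dim genes tested too, 0 members were called. Averaging a gene's probe sets left 3 called, of which Ndufa2 was among the 14. With arrays centred in place of quantile normalization 24 were lower, all 14 among them.

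Of the 14, complex I gave 6. Ndufv1, the NADH-binding subunit, was 10.73 and 10.76 in mutant tissue, against 11.17 in WT tissue, and fell by 0.43 ± 0.08 (1.35-fold, adjusted p = 0.00348), the largest of the 14 falls. Its probe set ends in x_at, a class with probes that can match other transcripts, and its 2 other probe sets above the limit differed by −0.13 and −0.27. Ndufb8, a membrane-arm accessory subunit, was 11.18 and 11.07 in mutant tissue, against 11.54 in WT tissue, and fell by 0.42 ± 0.08 (adjusted p = 0.00418). Ndufa5 was 10.77 and 10.71 in mutant tissue, against 11.11 in WT tissue, a fall of 0.37 ± 0.08 (adjusted p = 0.0102) that its other probe set shared at −0.31. Ndufa2, an accessory subunit of the matrix arm, was 11.48 and 11.42 in mutant tissue, against 11.81 in WT tissue, and fell by 0.36 ± 0.07 (adjusted p = 0.00686). Smaller falls were those of Ndufc1, a membrane-arm subunit, at −0.28 and Ndufv2, an iron-sulfur partner of Ndufv1, at −0.25. In each of these 6 genes both mutant arrays lay below WT. Ndufb1 had a larger difference, −0.71 ± 0.22, but a larger error, and did not pass (adjusted p = 0.0511). Ndufs1 and the accessory subunit Ndufa10 differed by 0.10 and 0.11 and did not pass.

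Complex III gave 3 falls of 8 members: Uqcrq, 10.24 and 10.20 in mutant tissue, against 10.56 in WT tissue, by 0.33 ± 0.09 (adjusted p = 0.0244), and Uqcrc2 and Uqcr11 by 0.29 ± 0.07 and 0.27 ± 0.08. The other Uqcrc2 probe set above the limit differed by 0.05. By brightest probe sets, the highest difference of the complex was 0.01 ± 0.06, in Uqcrb. Uqcrc1 and Uqcrfs1 differed by −0.07 and −0.11 and did not pass. In complex II 0 of 4 passed, with Sdha highest at 0.08 ± 0.09, Sdhd lowest at −0.17 ± 0.10 and Sdhb at −0.15 ± 0.08. In complex IV 1 of 12 passed: Cox7a2l was 11.75 and 11.62 in mutant tissue, against 12.02 in WT tissue, and fell by 0.33 ± 0.08 (adjusted p = 0.0129). Of its other probe sets 1 differed by −0.33 and 1 by −0.05. Cox4i1, Cox5a, Cox6a1, Cox6a2, Cox7a2 and Cox8a differed by −0.12, 0.05, 0.00, −0.10, −0.06 and −0.07, none past the threshold. Cox6b2 and Cox8c, both dim, had the lowest and the highest difference of the complex, −0.54 ± 0.25 and 0.12 ± 0.22.

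Complex V gave 4 falls of 17. Atp5g1 was 10.44 and 10.32 in mutant tissue, against 10.70 in WT tissue, and fell by 0.32 ± 0.09 (adjusted p = 0.0304). Atp5g2 was 12.12 and 12.09 in mutant tissue, against 12.36 in WT tissue, and fell by 0.25 ± 0.07 (adjusted p = 0.0244). The average of its 3 probe sets, 2 of them below the brightness limit, differed by 0.10. Atp5k and Atp5l, paired membrane subunits of the synthase, fell by 0.28 ± 0.07 and 0.23 ± 0.07 (adjusted p = 0.0189 and 0.0446). The falls of this complex were all in membrane subunits. The catalytic subunits Atp5a1 and Atp5b differed by 0.00 ± 0.07 and −0.04 ± 0.06, and 0 of the 5 head and central stalk genes and 0 of the 4 peripheral stalk genes passed. Atp5md had the lowest difference of the complex, −0.35 ± 0.16 (adjusted p = 0.173), and Atp5pb, the b subunit of the peripheral stalk, the highest, 0.01 ± 0.07.

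**Figure D4:**
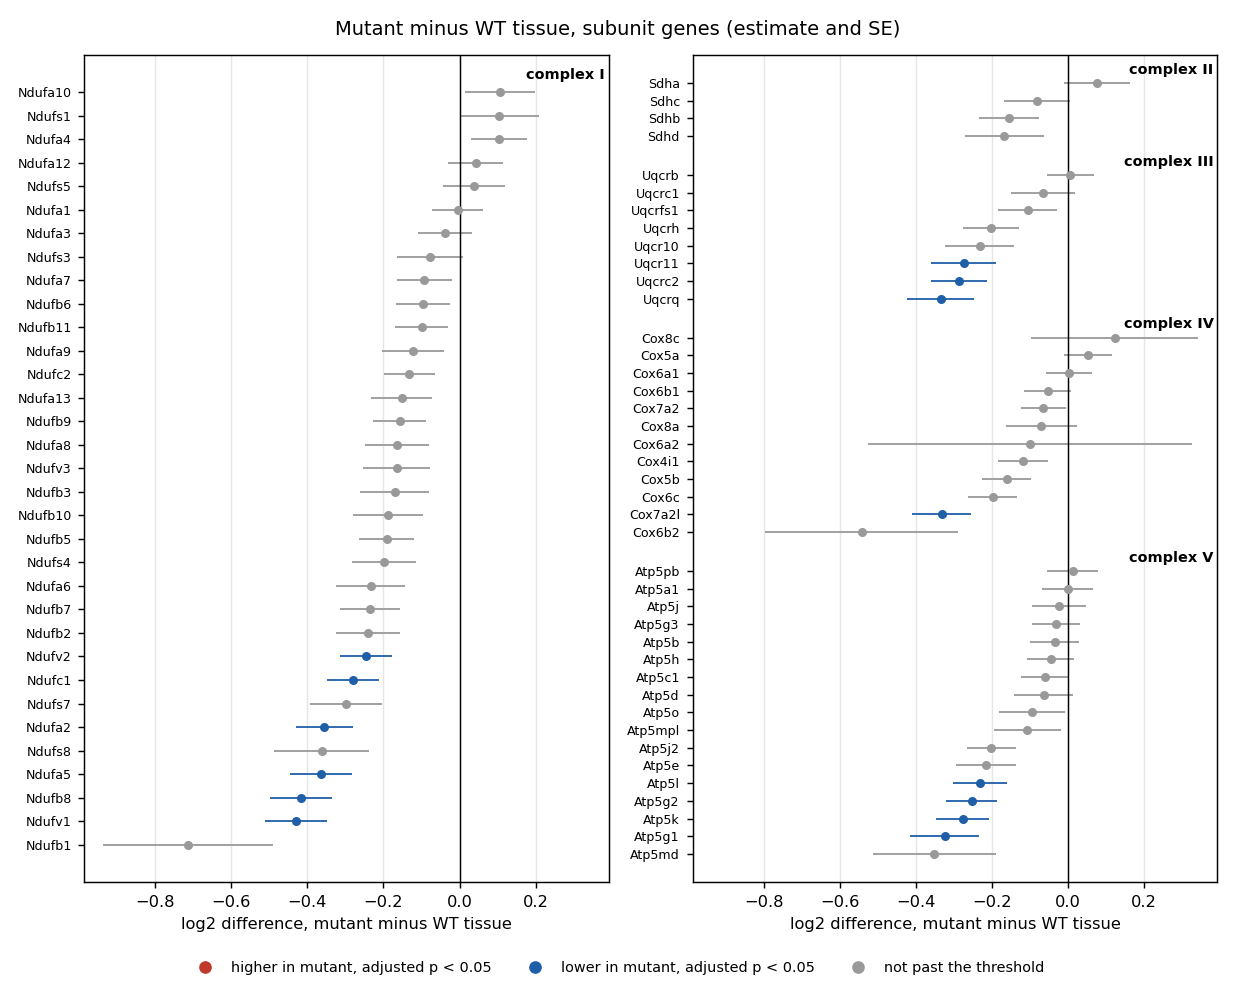
Mutant minus WT tissue for each of the 74 subunit genes tested, grouped by complex. Points are the fitted log2 differences and bars their SE, from 2 mutant arrays and 1 WT array. Blue marks the 14 genes lower in mutants, and grey those not past the threshold; no gene was higher. Most points lie left of 0 by less than 0.4.

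Cycling progenitor markers moved the same way in tissue: 5 of 5 tested (Mki67, Top2a, Cdk1, Pcna and Mcm2) were lower in mutants, with a median of −0.76. Their deposited signals summed to 10120 and 9367 in mutant tissue, against 15626 in WT tissue, with none at the floor. In culture the sum was 12783 in the mutant against 11778 in WT. Markers of the oligodendrocyte lineage were higher in mutant tissue (4 of 4 tested, with sums of 2255 and 2214 in mutant tissue against 1147 in WT tissue). Of 5 neuronal markers 3 were higher, with sums of 14362 and 13917 in mutant tissue against 12530 in WT tissue, and 0 with arrays centred. Of 6 astrocyte and radial glia markers 3 were higher and 0 lower. Lhx6, 1 of 2 MGE markers, and Hbb-bh1, 1 of 2 red blood cell markers tested, were lower. As for the subunit genes, 0 of these marker calls in tissue were left without an intensity trend or with dim genes tested. Among all genes tested, 8.59% were higher and 6.7% lower in mutant tissue. The part of these markers in the lower subunit genes was not tested.

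**Figure D5:**
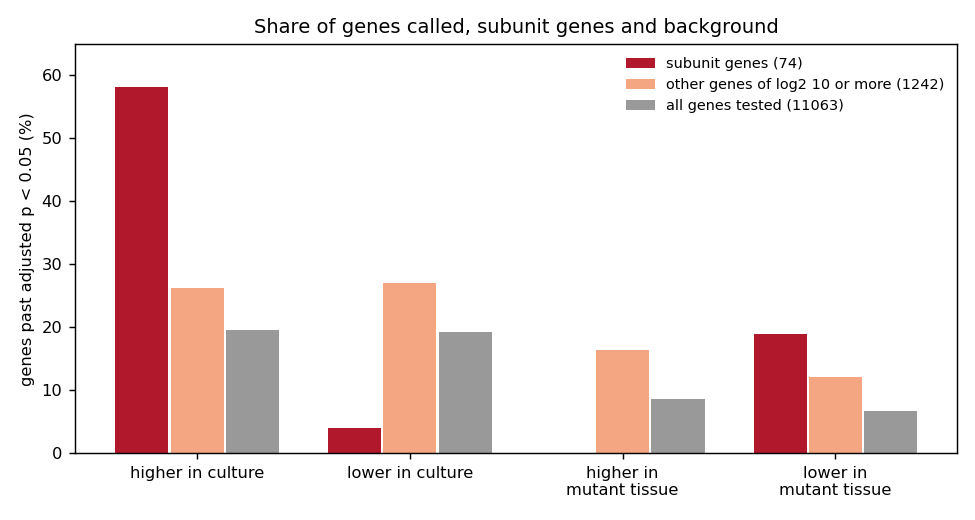
Bars give the percent of genes past an adjusted p of 0.05, for the 74 subunit genes (dark red), the other genes with a mean log2 intensity of 10 or more (salmon) and all 11063 genes tested (grey), with each comparison split by direction. Subunit genes stand at 58.1% higher in culture against 19.6% of all genes, and at 18.9% lower in mutant tissue against 6.7%. The missing bar is the 0 members higher in mutant tissue.

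In culture, with 1 array a group, genotype had no test. Mutant minus WT had a median of −0.05, against 0.01 over all genes tested, and 53 of 74 lay below 0 (against 48.1%). No member differed by 2-fold or more, against 1.85% of all genes higher and 1.83% lower. Among the other 1242 bright genes these shares were 0.322% and 0.322%. Cox6a2 differed most, at −0.89, and Ndufa10 was highest, at 0.14. Ndufv1, Ndufb8, Ndufa5 and Ndufa2 differed by 0.03, −0.05, −0.22 and −0.02. Of the 14 genes lower in mutant tissue, 11 were below WT in mutant culture, beside 71.6% of all 74 members. The Pearson r of the tissue and culture genotype differences over the members was −0.07.

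Across both preparations 0 of 74 members passed by limma, in either direction (against 0.814% of all genes higher and 0.253% lower), with a lowest adjusted p of 0.163. At an unadjusted p below 0.05, 13 were lower and 0 higher (against 4.84% and 8.2% of all genes tested). The median was −0.11, with 66 of 74 below 0 and 8 above (against 50.2% and 49.8%). Each of the 3 mutant arrays lay below the WT array of its own preparation in 45 members (60.8%, against 20.6% of all genes tested) and above it in 4 (5.41%, against 22.9%). Ndufb1 and Cox6a2 had the lowest differences, −0.42 ± 0.21 and −0.44 ± 0.32.

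The genotype effect was not shown to differ between culture and tissue for any member. The interaction passed in 0 of 74 (against 2.21% of all genes higher and 2.27% lower), with 7 higher and 2 lower at an unadjusted p below 0.05 (against 9.34% and 10.3%). It lay above 0 in 51 and below 0 in 23 (against 49.8% and 50.2%). Ndufv1 came closest: the culture effect exceeded the tissue effect by 0.46 ± 0.12 (adjusted p = 0.0635). Mutant culture stood 0.25 above mutant tissue, and WT culture differed from WT tissue by −0.20. These values are of its x_at probe set. Its 2 other probe sets above the limit differed by −0.13 and −0.27 between mutant and WT tissue, against −0.43 for this one. In culture they read 10.52 and 10.79 in the mutant, against 10.62 and 10.92 in WT. Their interaction was not tested. With a stricter brightness limit this gene passed (adjusted p = 0.0305). Ndufa4, the complex IV subunit named with complex I, had the lowest interaction of its group at −0.36 ± 0.11 (adjusted p = 0.103).

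The 2 comparisons share the tissue arrays, so their values are given side by side without a test of overlap. Of the 14 members lower in mutant tissue, 8 were also higher in culture, 2 (Cox7a2l and Atp5g2) were lower in culture, and 4 passed neither way. Ndufa5 and Uqcrq were among the 8: their culture-minus-tissue differences were 0.78 and 0.85, and their mutant-minus-WT differences in tissue −0.37 and −0.33. Ndufa12 was higher in culture by 0.87 with a tissue genotype difference of 0.04, against −0.15 and −0.14 in its 2 other probe sets above the limit.

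Other genes of the pathway, from lists chosen with earlier results known, gave calls as follows. Higher in culture were 52.9% of the electron carrier genes and 34.8% of the assembly factors, against 19.6% of all genes tested. Lower in mutant tissue were 23.5% and 15.2%, against 6.7%. Of 17 electron carriers and their makers, 9 were higher and 0 lower in culture (median 0.32), among them Cycs, cytochrome c itself, at 0.45 ± 0.06, and Ndufab1, the acyl carrier protein of complex I, at 0.58 ± 0.09. Without mutant tissue array 1 or 2, 4 and 3 were higher. Of 46 assembly factors 16 were higher and 1 lower in culture (median 0.22; 9 and 10 higher without mutant tissue array 1 or 2), among them Cmc2 at 1.72 ± 0.27 and Cox17, the copper chaperone of cytochrome c oxidase, at 0.84 ± 0.11. In tissue, 4 electron carrier genes and 7 assembly factors were lower in mutants, against 0 and 1 higher, and none of these falls was called without an intensity trend, with dim genes tested or with probe sets averaged.

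The single mitochondrial DNA-encoded subunit with a named probe set went the other way from most nuclear members. ND5, a proton-pumping subunit of complex I, had deposited signals of 4225 in mutant culture and 3326 in WT culture, against 5023 and 4783 in mutant tissue and 4829 in WT tissue, and fell in culture by 0.45 ± 0.08 (adjusted p = 0.00254). The call was kept on leaving out either mutant tissue array, but lost with arrays centred, with dim genes tested and without an intensity trend. Of 22 regulators of mitochondrial biogenesis tested, 5 were lower in culture (22.7%, near the 19.2% of all genes tested) and 1 was higher, with a median of −0.29, and 3 were lower without mutant tissue array 1 or 2. Ppargc1a, the coactivator PGC-1 alpha, rose 2.83-fold (adjusted p = 0.00612), while Gabpb1, a subunit of the ETS factor GABP, fell by 1.37 ± 0.14 (adjusted p = 0.000295) and the orphan receptor Esrrg by 1.32 ± 0.22. In mutant tissue Esrrg was higher by 1.56 ± 0.15 (adjusted p = 4.25e-05). It was the only call of the 22 there (4.55% higher, against 8.59% of all genes tested, and 0 lower). No tissue call of this list was left without an intensity trend, with dim genes tested or with probe sets averaged.

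Other probe sets of the members mostly had the same sign. Of 63 further probe sets above the brightness limit, for 40 genes, 54 had the sign of the brightest one between culture and tissue and 51 in the tissue genotype comparison. For the members called between culture and tissue the sign was shared by 35 of 40 further probe sets, and for those called in tissue by 11 of 12.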

How the data were processed

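Each array's deposited values were linear intensities for 45101 probe sets, 1 column a sample. All 5 columns had a 2% trimmed mean of 150.00, so the authors had scaled the arrays. The sources used here do not name the array software. Array medians were 26.2 to 29.8, and the number of arrays limits the precision. Intensities were quantile normalized over all probe sets, floored at the pooled 20th percentile (signal 5.15) and put on the log2 scale. The 64 control probe sets were then dropped. Gene symbols came from GEO's platform annotation, in which 34945 probe sets had 1 symbol, 932 several and 9211 none. The probe set with the highest mean stood for a gene, and 11063 of 18193 genes with a mean above the pooled median (log2 4.80) were tested.

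limma 3.58.1 (R 4.3.3) with an intensity trend gave moderated tests with Benjamini-Hochberg adjustment. Genotype in tissue was fitted on the 3 tissue arrays (1 residual degree of freedom, 10.9 prior). Genotype and preparation were fitted together on all 5 arrays (2 residual, 5.95 prior), and their interaction likewise (1 residual, 8.57 prior). Genotype in culture, with 1 array a group, had no test. Alternatives changed the scaling, floor, brightness limit, probe set rule and trend, and left out each mutant tissue array. The code was tested on simulated data. Genes named are classic subunits of each complex, every member called where 15 or fewer were called and otherwise the 8 with the largest differences in each direction, and the highest and lowest of each complex. The members, lists and rules were chosen with earlier results of these data known.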

Additional observations from a re-analysis of the deposited data

Results flagged for a closer look

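No subunit gene had a genotype effect that passed the test of a difference between culture and tissue, while 6 related genes did (limma, adjusted over 11063 genes). Among all genes tested, 2.21% were higher and 2.27% lower by this test. Of 46 assembly factors 2.17% were higher and 2.17% lower, and of 31 carriers, porins and import genes 3.23% were higher. Of 71 mitochondrial ribosome genes 1.41% were higher, of 12 reactive oxygen defence genes 8.33% were higher, and of 10 hypoxia response genes 10% were lower. The other pathway lists had none. Each of the 6 is given as the culture effect minus the tissue effect, with 1 array a group in culture. Ndufa4l2, a relative of Ndufa4 outside the list, had an interaction of −3.78 ± 0.58 (adjusted p = 0.00803). Its difference was −2.20 in mutant culture minus WT culture and 1.58 in mutant tissue minus WT tissue. It was dim, at 3.43 in mutant culture and 5.64 in WT culture, against 6.30 and 6.19 in mutant tissue and 4.67 in WT tissue. Its mutant culture and WT tissue readings lay below the brightness limit. Both its culture and its tissue difference rest on such a reading. The copper chaperone Sco2 had −1.51 ± 0.35 (adjusted p = 0.0439), from −0.55 in culture and 0.97 in tissue. The aspartate-glutamate carrier Slc25a13 had 1.55 ± 0.32 (adjusted p = 0.0266), from 0.43 in culture and −1.12 in tissue. The oxidase assembly factor Cmc2 had 1.24 ± 0.28 (adjusted p = 0.0390), from 0.27 in culture and −0.98 in tissue. Mrps36 had 0.74 ± 0.17 (adjusted p = 0.0398), from 0.14 in culture and −0.60 in tissue. The superoxide dismutase Sod1 had 0.45 ± 0.10 (adjusted p = 0.0430), from 0.20 in culture and −0.24 in tissue.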

How the results depend on the processing

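Members called in tissue numbered 14, against 24 with arrays centred, 22 with a stricter brightness limit, 3 with probe sets averaged, and 0 without an intensity trend or with dim genes tested. Members called between culture and tissue numbered 46, against 28 without either mutant tissue array, 17 without a trend and 13 with dim genes tested. The interaction called 1 member with the stricter limit, and in culture 1 dim member passed 2-fold with no limit. The deposited scaling and the centring moved the median in tissue to −0.25 and −0.32, across both preparations to −0.18 and −0.22, and between culture and tissue to 0.30 and 0.37. Without a mutant tissue array it ran from −0.17 to −0.11 in tissue, from −0.12 to −0.10 across both preparations and from 0.24 to 0.28 between culture and tissue. With probe sets averaged, Atp5g2 in tissue turned to 0.10 and Uqcrq between culture and tissue to −0.20. The averages include dim probe sets. Other causes were not tested. The tissue and interaction tests could not be run without a mutant array, for lack of residual degrees of freedom. No paired analysis was possible because only mutant tissue has 2 arrays and the labels give no shared numbers.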

Other observations

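Of all genes tested, 19.6% were higher and 19.2% lower in culture, and in mutant tissue 8.59% were higher and 6.7% lower. The mitochondrial ribosome makes the mitochondrial DNA-encoded subunits. Of its 71 genes, the longest neighbouring list, 32 were higher in culture than in tissue (45.1%) and 2 lower (limma, adjusted over 11063 genes), with a median of 0.29, and 19 and 21 were higher without mutant tissue array 1 or 2. Mrpl33 rose by 2.45 ± 0.15 (adjusted p = 2.53e-05) and Mrps6 by 0.97 ± 0.09 (adjusted p = 0.000201). In mutant tissue 15 were lower (21.1%) and 0 higher, with a median of −0.27, and Mrps22 fell by 0.60 ± 0.10 (adjusted p = 0.00136). The lower calls numbered 33 with arrays centred, 25 with a stricter brightness limit and 2 with probe sets averaged. They numbered 0 without an intensity trend and 0 with dim genes tested. Of 26 genes of pyruvate entry and the citric acid cycle, 12 were higher and 0 lower in culture (6 and 5 higher without mutant tissue array 1 or 2), among them the fumarase Fh1 at 0.75 ± 0.10 and the pyruvate carrier subunit Mpc1 at 0.70 ± 0.10. The share higher in culture was 46.2%. In mutant tissue 2 were lower (7.69%, near the 6.7% of all genes tested) and 1 higher (3.85%, against 8.59%). For the carriers, porins and import genes given next, shares were 48.4% higher and 6.45% lower in culture, and 12.9% lower in mutant tissue. Of 31 carriers, porins and import genes, 15 were higher and 2 lower in culture (10 and 10 higher without mutant tissue array 1 or 2), and 4 were lower in mutant tissue. As for the ribosome genes, no tissue call of these lists was left without an intensity trend or with dim genes tested.

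Lists outside the mitochondrial machinery gave calls in both directions. Of 17 genes of glycolysis and lactate, 8 were higher in culture (47.1%, against 19.6% of all genes tested) and 5 lower (29.4%, against 19.2%). The lactate transporter Slc16a1 differed by 2.58 ± 0.17 (adjusted p = 3.13e-05) and the aldolase Aldoc by −1.02 ± 0.14 (adjusted p = 0.000931). Without mutant tissue array 1 the higher calls were 4. Of 10 genes of the hypoxia response, 2 were higher in culture (20%, near the 19.6% of all genes tested) and 4 lower (40%, against 19.2%). Egln3, an oxygen sensor, differed by 2.68 ± 0.16 and Ankrd37 by −3.39 ± 0.27. In mutant tissue 3 of the 10 were higher (30%, against 8.59% of all genes tested). Of 12 genes of defence against reactive oxygen, 5 were higher in culture (41.7%) and 2 lower (16.7%, near the 19.2% of all genes tested). Sod1 differed by 0.83 ± 0.10 and the catalase Cat by −0.96 ± 0.10. Of the 12, 4 were lower in mutant tissue (33.3%, against 6.7%). In all these lists, 0 tissue genotype calls were left without an intensity trend and 0 with dim genes tested.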
